A study of Mus musculus with 4 samples.

Results

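The insulin-like growth factor (IGF) family was followed in fetal mouse leg muscle through 10 genes: the ligands Igf1 and Igf2, the receptors Igf1r and Igf2r, and the binding proteins Igfbp2, Igfbp3, Igfbp4, Igfbp5, Igfbp6 and Igfbp7. They were taken by gene symbol, 10 of the 32285 genes in the deposited matrices, and their unique molecular identifiers (UMIs, 1 for each captured transcript molecule) were summed by cell class, myogenic stage, genotype and library. Leg muscles came from fetuses at embryonic day E18.5, with 2 libraries of wild-type fetuses (WT1 and WT2) and 2 of fetuses without the long non-coding RNA SYISL (KO1 and KO2). The study describes the genotypes as from the same litter. Whether 1 litter gave all the libraries is not settled by its methods, which name heterozygous females in the plural. The parents were heterozygous for SYISL and fetuses were genotyped from their tails. The loss was thus present in every cell of a KO fetus and not in muscle alone. SYISL itself was not analysed here. The tissue was digested with trypsin and filtered, a step that whole muscle fibres do not pass.

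The libraries held 9528 to 11670 cells and 109653824 to 126257094 UMIs, and 8177 to 10461 cells per library passed the filters on genes, UMIs and mitochondrial share, 36969 in all, with median depths of 9118 to 11427 UMIs per cell. Pairs of libraries shared 21 to 41 cell barcodes, at most 0.43% of the smaller library. KO2 stood apart in sex-linked transcripts, with Xist at 1203 CPM (UMIs of the gene per 1000000 UMIs of the same cells) against 0.05 or less elsewhere and Ddx3y at 0.93 CPM against 99.5 to 108, so fetal sex was not balanced over the genotypes, and each KO comparison was also run without KO2. Members of the family made up 0.356% to 0.398% of the UMIs of the retained cells, and 99.0% to 99.3% of those cells held at least 1 of their UMIs.

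IGF1 and IGF2 are small secreted proteins related to insulin that drive fetal growth and act on muscle precursor cells, where they can favour proliferation, differentiation and fibre growth. Both signal through the receptor tyrosine kinase IGF1R, whereas IGF2R, which is also the mannose 6-phosphate receptor, carries IGF2 to lysosomes without signalling as a kinase. In the extracellular space the ligands are held by binding proteins, which store them, carry them or keep them from the receptor until a protease such as PAPPA cleaves the complex. Igf2 is expressed from the paternal allele and Igf2r, in most mouse tissues, from the maternal allele.

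Cells were grouped without the 10 members and 34 other IGF pathway genes, and the groups were named from markers. Fibro-adipogenic progenitor (FAP)-like cells, the fibroblast-type cells of the muscle interstitium, were the largest class with 18875 cells (51.1% of the retained cells), followed by 6725 myogenic cells (18.2%). Chondrocyte-like cells numbered 2262, tenocyte-like cells 2089, glial-like cells 1837, smooth muscle or pericyte-like cells 1741, endothelial-like cells 1340, macrophage-like cells 1112 and mast-like cells 290. For each of these 9 classes most of the markers were highest in the class that carried the name. These were 7 of 8 for the myogenic cells and 5 of 8 for the FAP-like cells. The FAP markers Col1a1, Col1a2 and Pi16 were each higher in another class. A further 215 neutrophil-like cells, too few in the KO libraries to test, and 483 unnamed cells with both myogenic and FAP markers were left out of the comparisons. Names rebuilt in this way can differ from those of the study.

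**Figure D1:**
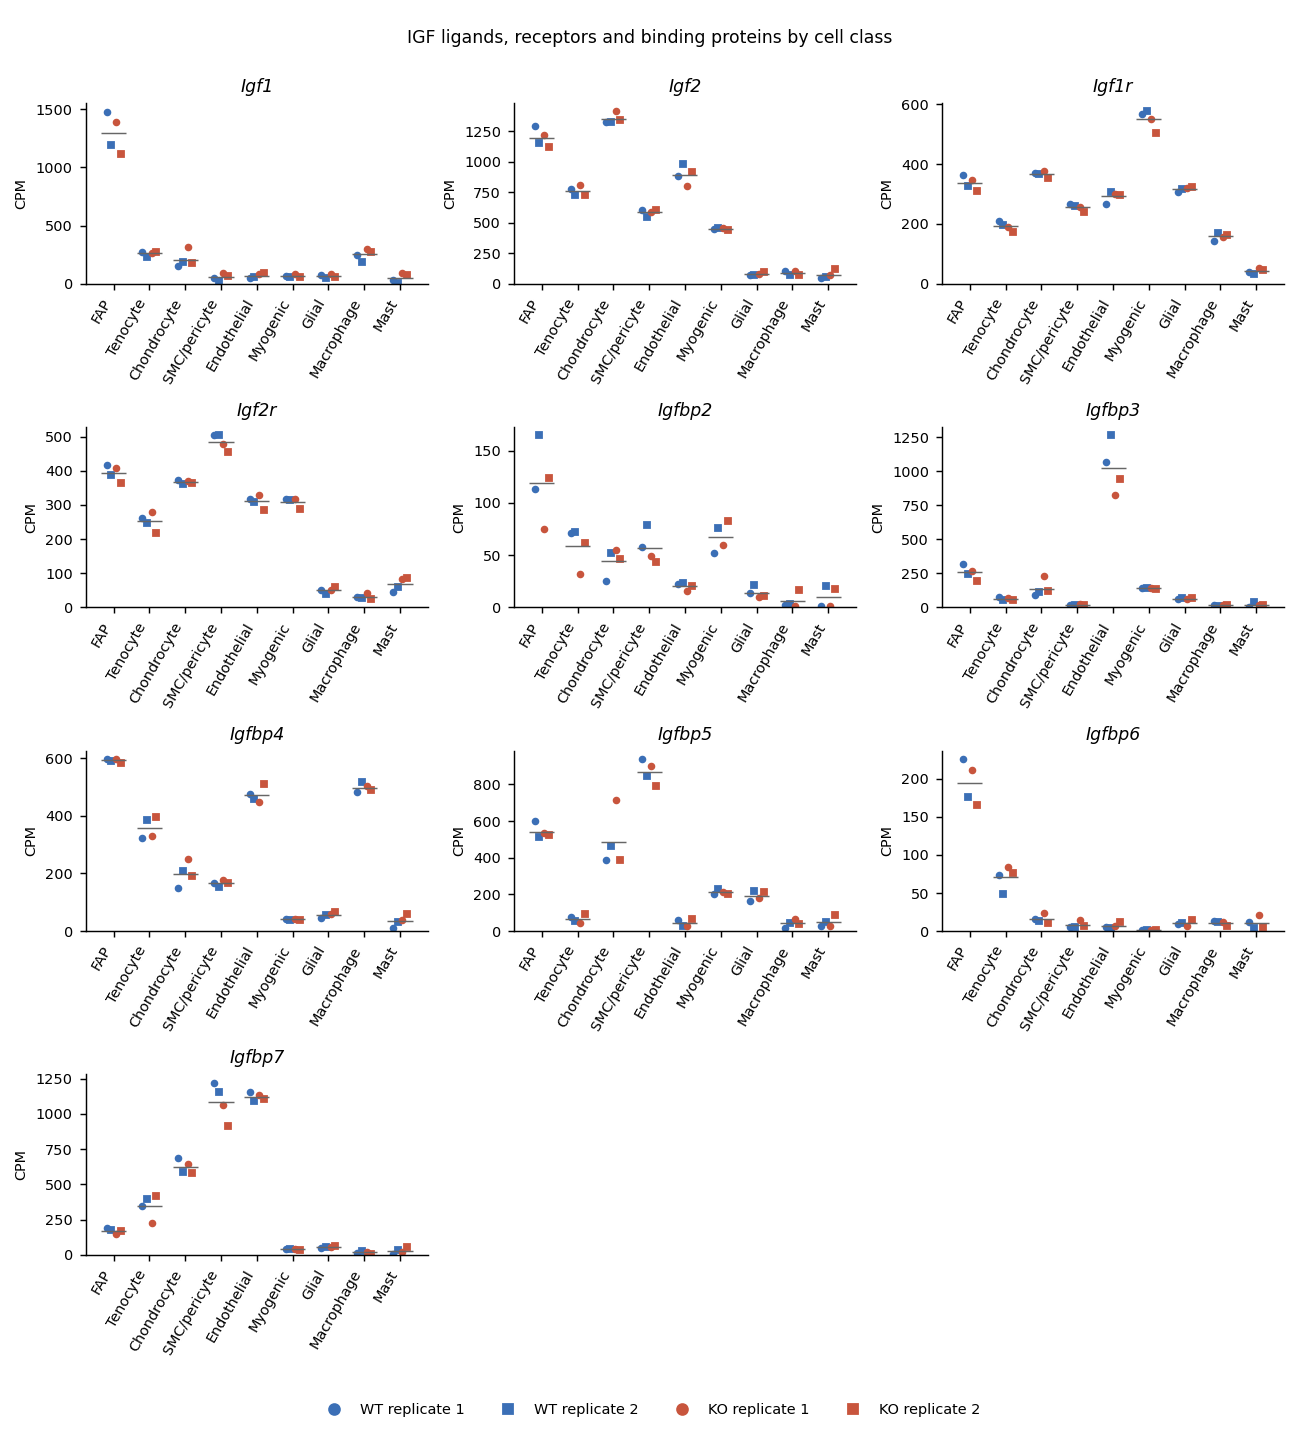
Level of each of the 10 members in 9 cell classes, in CPM (the gene's UMIs scaled to the same UMI total for each class and library), with 1 point per library (blue WT, red KO) and a line at the mean of the 4 libraries. Igf1 stood at 1117 to 1479 CPM in FAP-like cells and at 313 CPM or less in every other class, Igf1r was highest in myogenic cells (502 to 576 CPM), and Igfbp3 was highest in endothelial-like cells (825 to 1263 CPM).

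Igf1, the ligand best known for muscle growth, came almost entirely from the FAP-like cells, which held 91.1% of its 291592 UMIs. Its level there was 1479 CPM in WT1, 1193 in WT2, 1387 in KO1 and 1117 in KO2, a mean of 1294 ± 168 CPM (SD, n = 4 libraries), or 4.97 times that of the next class. In this clustering the lowest FAP library lay far above every library of every other class. Tenocyte-like cells (260 ± 20.9 CPM), macrophage-like cells (253 ± 48.7 CPM) and chondrocyte-like cells (208 ± 71.7 CPM) followed, and their libraries overlapped. The remaining classes stood at 51.4 to 70.7 CPM on average, again with overlapping libraries: 70.7 ± 19.8 CPM in endothelial-like cells, 66.6 ± 11.6 in myogenic cells, 66.5 ± 14.3 in glial-like cells, 59.0 ± 27.4 in smooth muscle or pericyte-like cells and 51.4 ± 37.8 in mast-like cells. The lead of the FAP-like cells depended on the clustering. With the members kept among the clustering genes they had 1401 CPM, against 781 in chondrocyte-like cells. With called doublets removed they had 1327 CPM, against 582 in tenocyte-like cells. Both names then took in a cluster with FAP markers. With the looser cell filter and the finer clustering the next class, macrophage-like cells, stood at 273 and 286 CPM.

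Free RNA in the droplets can give low counts of an abundant transcript in cells that do not make it, so the shares of cells with an Igf1 UMI were compared after each cell was thinned to 2000 UMIs. In FAP-like cells 82.2% ± 3.4 of the thinned cells had an Igf1 UMI (SD, n = 4), against 34.2% ± 3.0 in tenocyte-like cells and 29.2% ± 8.1 in macrophage-like cells. The share was 10.2% ± 1.7 in myogenic cells, 8.7% ± 2.5 in endothelial-like cells and 5.9% ± 2.2 in smooth muscle or pericyte-like cells. Glial-like cells (5.5% ± 0.8) and mast-like cells (2.6% ± 2.2) had the lowest shares of the tested classes. Lowest shares are not an independent measure of free RNA. The myogenic libraries (8.2% to 11.9%) overlapped with the endothelial-like libraries (5.2% to 11.1%). Without thinning the shares were 95.5% in FAP-like cells, 63.6% in macrophage-like cells, 24.6% in myogenic cells and 13.0% in glial-like cells, at median depths of 10316, 10734.5, 9910 and 10782 UMIs per cell. A different view divided the Igf1 level by the summed level of 8 FAP markers in the same class and set it against the same ratio in FAP-like cells. RNA from FAP-like cells alone would give 1 only where the class makes none of these markers itself. A class with its own marker transcripts, such as collagens, has a lower ratio. A value of 1 or less therefore does not show where the Igf1 came from. The ratio was 2.67 to 4.81 in macrophage-like cells and 1.66 to 2.28 in myogenic cells, above 1 in all 4 libraries of each. It was 0.64 to 1.13 in endothelial-like cells, 0.36 to 0.88 in mast-like cells, 0.27 to 0.49 in smooth muscle or pericyte-like cells and 0.10 to 0.17 in glial-like cells, so it was above 1 in all 4 libraries of none of these classes; glial-like cells had a marker sum of 10192 to 11219 CPM, with Dcn at 111 to 137 CPM.

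Igf2, the main growth factor of the fetus, was spread much more widely. Its level was 1322, 1323, 1410 and 1340 CPM in chondrocyte-like cells (1349 ± 41.7 CPM) and 1291, 1154, 1215 and 1116 CPM in FAP-like cells (1194 ± 76.3 CPM), given throughout in the order WT1, WT2, KO1, KO2. The libraries of these classes did not overlap, but the order of the pair was not stable, since FAP-like cells came first (1259 CPM) when the members were kept among the genes used for clustering. In that clustering the chondrocyte-like class took in 2835 cells led by cell cycle genes such as Mxd3 and Plk1, with 7 of the 8 FAP markers, so the change of order goes with a change in which cells carried the name. Endothelial-like cells (894 ± 72.4 CPM) and tenocyte-like cells (758 ± 41.4 CPM) overlapped, and smooth muscle or pericyte-like cells (586 ± 28.3 CPM) came next. Myogenic cells held 448, 454, 458 and 441 CPM, the narrowest range of any class, and 57.4% ± 2.1 of their thinned cells had an Igf2 UMI. In macrophage-like, glial-like and mast-like cells the means were 73.2 to 89.6 CPM and the thinned shares 6.9% to 8.8%, the lowest of the classes. Relative to the FAP markers Igf2 was at 0.14 to 0.20 times the FAP-like ratio in glial-like cells and 0.76 to 2.01 times in mast-like cells, but above 1 in all 4 libraries of macrophage-like cells (1.05 to 1.38). Myogenic cells, at 12.8 to 15.6 times that ratio, were above these classes in every library, while the FAP-like cells, by their number, held 69.3% of its 354602 UMIs.

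H19, the non-coding RNA that lies beside Igf2 (chr7:142575529-142578143, against chr7:142650766-142666816 for Igf2, both on the minus strand of GRCm38, the build mm10) and is expressed from the maternal allele, had the class profile most like that of Igf2 among genes with 50 CPM or more in a class. Pearson's r between their log2 mean levels was 0.99 over the 9 classes, a description only, since all classes share the same libraries. H19 stood at 1606 to 1908 CPM in chondrocyte-like cells, 1352 to 1558 in FAP-like cells and 447 to 502 in myogenic cells, the same order as Igf2.

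The receptors were highest in other classes than the ligands. Igf1r, the signalling receptor, had levels of 566, 576, 551 and 502 CPM in myogenic cells (549 ± 32.7 CPM), and no library of another tested class came near this range. Chondrocyte-like cells followed with 367 ± 9.9 CPM, then FAP-like cells with 337 ± 23.3, glial-like cells with 316 ± 7.4 and endothelial-like cells with 292 ± 17.6 CPM. Lower levels were found in smooth muscle or pericyte-like cells (256 ± 12.2 CPM), tenocyte-like cells (192 ± 15.5 CPM) and macrophage-like cells (158 ± 11.5 CPM), and mast-like cells had the lowest with 42.4 ± 8.9 CPM. After thinning, 61.1% ± 1.7 of myogenic cells and 6.9% ± 2.7 of mast-like cells had an Igf1r UMI. In neutrophil-like cells, left out of the comparisons, the share was 63.7%, 63.3%, 45.8% and 48.0%, from 102, 60, 24 and 25 cells. In the WT libraries it thus reached the myogenic share, which was 62.6% in WT1 and 61.5% in WT2. Although myogenic cells were 18.2% of the retained cells, they held 27.2% of the 141312 Igf1r UMIs.

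Igf2r, the receptor that clears IGF2, was highest in smooth muscle or pericyte-like cells, with 505, 504, 479 and 454 CPM (485 ± 24.4 CPM). FAP-like cells had 395 ± 23.1 CPM, chondrocyte-like cells 368 ± 4.9, endothelial-like cells 310 ± 19.2 and myogenic cells 309 ± 14.7 CPM, the last pair overlapping. Tenocyte-like cells stood at 252 ± 26.8 CPM, and the 3 remaining classes at 30.8 to 68.5 CPM. The profile most like that of Igf2r was that of Airn (r = 0.98 over the 9 classes), the antisense RNA that silences the paternal Igf2r allele. Airn starts inside Igf2r and runs the other way (chr17:12741311-12860136 on the plus strand, against chr17:12682406-12769664 on the minus strand for Igf2r). Whether the deposited counts use strand is not given in the sources used here, so reads of the overlap cannot be told apart with certainty.

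The binding proteins divided between the vessel wall, the endothelium and the FAP-like cells. Igfbp3, the major carrier of circulating IGFs, was highest in endothelial-like cells with 1068, 1263, 825 and 940 CPM, 3.98 times the FAP-like level of 257 ± 49.4 CPM. Myogenic cells (141 ± 3.0 CPM) and chondrocyte-like cells (139 ± 63.4 CPM) followed, and the other classes had 65.9 CPM or less on average. Igfbp7, which binds IGFs only weakly and is known from the matrix around vessels, was at 1121 ± 30.6 CPM in endothelial-like cells and 1088 ± 133 CPM in smooth muscle or pericyte-like cells, which overlapped. It stood at only 171 ± 15.9 CPM in FAP-like cells and 38.8 ± 3.1 CPM in myogenic cells.

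Igfbp5, a binding protein of bone and muscle that adheres to the extracellular matrix, was highest in smooth muscle or pericyte-like cells (938, 845, 900 and 789 CPM). FAP-like cells (543 ± 39.0 CPM) and chondrocyte-like cells (488 ± 154 CPM) came next and overlapped, and myogenic cells held 211 ± 13.4 CPM. Igfbp4, whose complex with IGFs is cleaved by PAPPA, stood at 597, 591, 596 and 584 CPM in FAP-like cells, at 498 ± 16.2 in macrophage-like cells and at 473 ± 26.1 in endothelial-like cells, while myogenic cells had only 41.1 ± 2.1 CPM. Igfbp6, which prefers IGF2 to IGF1, was the member most restricted to connective tissue, since FAP-like cells held 92.9% of its 43014 UMIs. Its levels were 226, 176, 212 and 166 CPM in FAP-like cells and 70.6 ± 15.4 CPM in tenocyte-like cells, and no more than 15.7 CPM on average in any other class. Myogenic cells had 1.46 ± 0.41 CPM of Igfbp6, and its ratio to the FAP markers was 0.21 to 0.35 times that in FAP-like cells. Dcn, which encodes the matrix proteoglycan decorin, had the profile most like that of Igfbp6 (r = 0.98).

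Igfbp2, a binding protein of many embryonic tissues, was the least settled of the 10. FAP-like cells had 113, 164, 74.6 and 124 CPM and myogenic cells 52.2, 76.0, 59.6 and 82.4 CPM, so the classes overlapped, and WT2 and KO2 lay above WT1 and KO1 in both. With the members kept among the clustering genes, or with the called doublets removed, tenocyte-like cells became its highest class, at 234 and 228 CPM. The tenocyte-like class then took in a cluster of 3263 or 3862 cells with Anxa8 among its leading genes and 6 of the 8 FAP markers. Anxa8 also led the sub-cluster of FAP-like cells with the most Igfbp2, described further on. The highest class of the 8 members other than Igf2 and Igfbp2 was the same under all 4 other clusterings tried. Igfbp2 and Igfbp5 are neighbours on chromosome 1 (chr1:72824503-72852474 on the plus strand and chr1:72857932-72874884 on the minus strand), yet their highest classes differed. The profile most like each other member over the 9 classes was that of Abca9 for Igf1 (r = 0.88), Xpo4 for Igf1r (0.98), Ubfd1 for Igfbp2 (0.97), S100a16 for Igfbp3 (0.94), Zfp652 for Igfbp4 (0.93), Ndrg2 for Igfbp5 (0.97) and Eln for Igfbp7 (0.97).

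Which members differed between the main source of ligand and the muscle lineage was tested on summed counts of FAP-like and myogenic cells in the 4 libraries, with library as a block. A gene was called at an adjusted p below 0.05 and a difference of at least 2-fold, and 36.7% of the 17218 genes tested were called, with 24.5% of those tested higher in FAP-like cells. Of the 10 members 6 were higher in FAP-like cells and none lower, with a median log2 difference of 1.23 against 0.06 over all genes. Igfbp6 differed most (log2 difference 6.87, SE 0.09, adjusted p = 1.35e-12), ahead of Igf1 (4.13, SE 0.05, adjusted p = 6.09e-13, 17.5-fold) and Igfbp4 (3.70, SE 0.04). Igfbp7 (1.99), Igf2 (1.25) and Igfbp5 (1.21) were called with smaller log2 differences. Igf1r was the only member lower in FAP-like cells, at a log2 difference of -0.86 (SE 0.04, adjusted p = 3.53e-09), which is under 2-fold and so was not called. Igfbp3 (0.69), Igfbp2 (0.63) and Igf2r (0.20) also stayed under 2-fold. All 6 calls held in each alternative run, with a log2 difference of Igf1 between 3.52 and 4.20.

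Between the same classes 4218 of all 17218 genes tested were called higher in FAP-like cells and 2093 lower. Of 31 other pathway genes tested, 11 were higher and 1 lower. Several of them act on binding proteins: the protease genes Pappa (log2 difference 4.29), Adam12 (2.69) and Htra1 (2.42), and Stc1 (2.66), which encodes an inhibitor of PAPPA. Pappa stood at 29.6 to 45.1 CPM in FAP-like cells and 1.27 to 1.99 CPM in myogenic cells, and its libraries did not overlap. Lrp1 (3.12), Grb14 (3.12) and H19 (1.48) were higher as well, of which Grb14 encodes an adaptor that restrains insulin receptor signalling. Stc2, the relative of Stc1 that also inhibits PAPPA, was the gene higher in myogenic cells (log2 difference -1.98), though at 3.69 to 4.04 CPM. Irs1, the docking protein below IGF1R, was lower in FAP-like cells by less than 2-fold (log2 difference -0.29, SE 0.05, adjusted p = 0.00019), at 93.1 to 107 CPM against 105 to 117 CPM in myogenic cells. Insr, the insulin receptor, did not pass the test (-0.10, adjusted p = 0.0709), at 50.0 to 66.0 and 46.3 to 62.7 CPM.

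**Figure D2:**
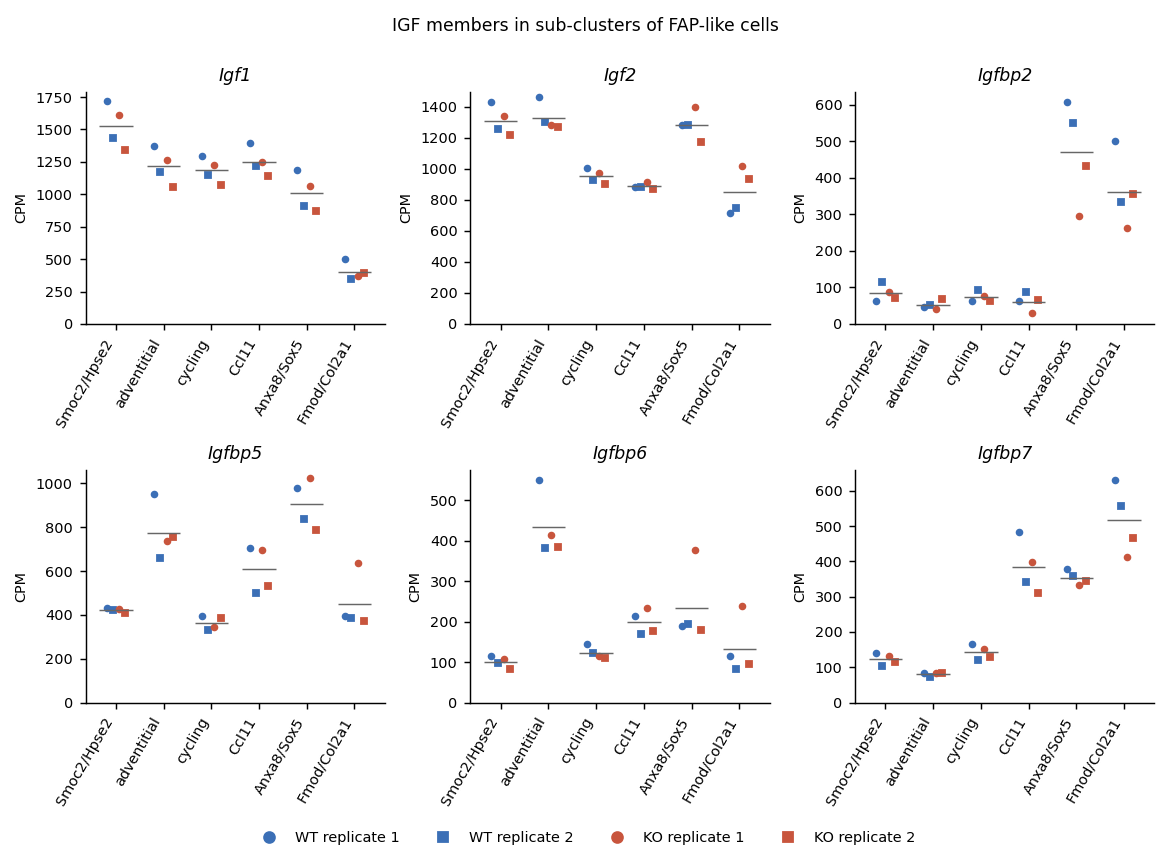
Level of Igf1, Igf2, Igfbp2, Igfbp5, Igfbp6 and Igfbp7 in the 6 sub-clusters of FAP-like cells, in CPM, with 1 point per library (blue WT, red KO) and a line at the mean of 4 libraries. Igfbp2 stood at 261 to 607 CPM in the sub-clusters led by Anxa8 and Fmod and at 28.7 to 114 CPM in the rest, and Igfbp6 was highest in the adventitial sub-cluster (383 to 551 CPM).

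The FAP-like class was not uniform for the family. It split into a sub-cluster of 8110 cells with the FAP markers Smoc2 and Hpse2, whose leading genes by fold, such as Tnnc2, Myl1 and Acta1, are those of muscle fibres, so that it was given no further name; an adventitial-like sub-cluster of 4195 cells with Pi16 and Ly6a; a cycling one of 2839; and 3 unnamed ones led by Ccl11 (1464 cells), Anxa8 and Sox5 (1853) and Fmod and Col2a1 (414). Igf1 was highest in the Smoc2 and Hpse2 sub-cluster with 1722, 1435, 1615 and 1338 CPM and lowest in the Fmod sub-cluster with 501, 344, 370 and 391 CPM, a 3.80-fold range in which the lowest and highest sub-clusters did not overlap. Every sub-cluster but that led by Fmod reached 869 CPM or more in each library. Cartilage and tendon genes (Col2a1, Acan, Tnmd) led the Fmod sub-cluster, against the name of the class, and without it the lowest was the Anxa8 sub-cluster with a mean of 1008 CPM.

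Igfbp2 was instead concentrated in the Anxa8 sub-cluster, with 607, 551, 296 and 431 CPM, and the Fmod sub-cluster, with 499, 334, 261 and 355 CPM, while the other 4 had 51.7 to 83.7 CPM on average. Together these sub-clusters made up 12.0% of the FAP-like cells and 47.7% of their Igfbp2 UMIs. KO1 contributed 174 of the Anxa8 cells and 33 of the Fmod cells, fewer than any other library, and it had the lowest Igfbp2 level of the whole FAP-like class. Igfbp6 was highest in the adventitial-like sub-cluster, with 551, 383, 415 and 384 CPM, 4.28 times its mean in the Smoc2 and Hpse2 sub-cluster, whereas Igfbp7 was lowest there (80.5 ± 5.8 CPM) and highest in the Fmod sub-cluster (516 ± 96.8 CPM). Igfbp5 was highest in the Anxa8 sub-cluster (906 ± 113 CPM) and the adventitial-like sub-cluster (776 ± 124 CPM), which overlapped. Igf2, Igf1r, Igf2r and Igfbp4 varied by less than 2-fold between their highest and lowest sub-cluster.

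**Figure D3:**
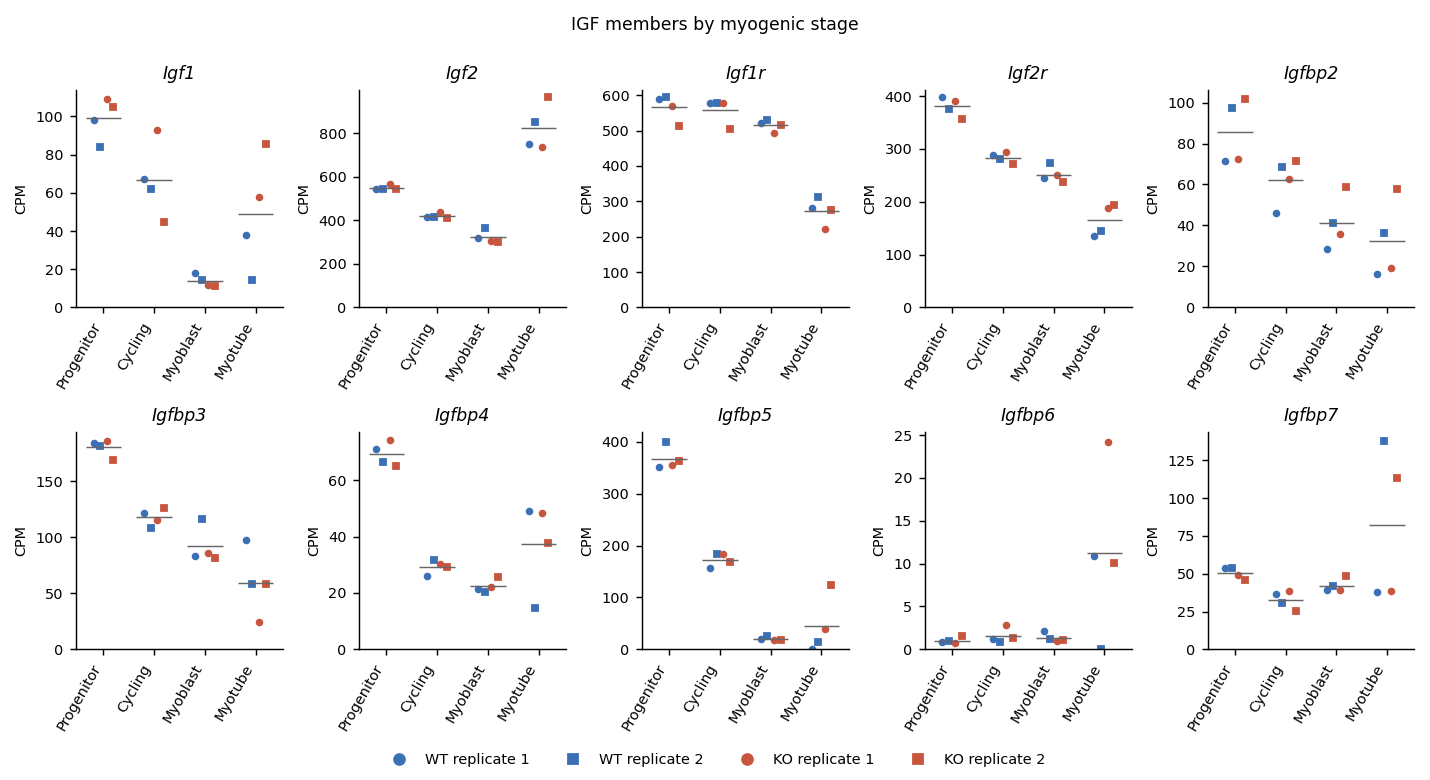
Level of each member in 4 myogenic stages, in CPM, with 1 point per library (blue WT, red KO) and a line at the mean of 4 libraries. Igfbp5 stood at 351 to 399 CPM in progenitor-like cells and 17.1 to 24.7 CPM in myoblast-like cells, and Igf2 was highest in the few myotube-like cells (734 to 964 CPM).

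Within the myogenic class, cells were placed in 4 stages: 2782 progenitor-like cells with Pax7-type markers, 1908 cycling cells, 915 myoblast-like cells with markers of commitment and fusion, and 91 myotube-like cells (27, 15, 18 and 31 per library). A further 1029 cells led by Ung and Ecrg4 stayed unnamed. Igfbp5 set the stages apart most. Its level was 351, 399, 354 and 363 CPM in progenitor-like cells, 156, 183, 183 and 169 CPM in cycling cells and 20.5, 24.7, 17.8 and 17.1 CPM in myoblast-like cells, with no overlap between any of them. In thinned cells 45.3% ± 3.1 of progenitor-like and 3.8% ± 0.5 of myoblast-like cells had an Igfbp5 UMI.

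Myoblast-like and progenitor-like cells were compared across the 4 libraries, with library as a block and the same rule for a call. Of 11545 genes tested 28.3% were called, and 18.8% of all genes tested were lower in myoblast-like cells. Of the 9 members tested (Igfbp6 was too low) 3 were lower and none higher, with a median log2 difference of -0.83 against -0.02 over all genes. Igfbp5 fell by 4.05 on the log2 scale (SE 0.08, adjusted p = 5.69e-21, or 16.6-fold), Igf1 by 2.70 (SE 0.12, adjusted p = 9.63e-15, or 6.51-fold) and Igfbp4 by 1.48 (SE 0.10, adjusted p = 1.28e-11, or 2.78-fold). The Igf1 levels behind this were 98.3, 84.1, 109 and 105 CPM in progenitor-like and 17.9, 14.3, 12.0 and 11.4 CPM in myoblast-like cells, from 2338 and 145 UMIs, and the stages did not overlap. Summed FAP markers were also higher in progenitor-like cells, at 867 to 994 CPM against 252 to 325 CPM in myoblast-like cells, and their part in the 3 differences was not tested. Relative to those markers Igf1 was at 1.97 to 2.44 times the FAP-like ratio in progenitor-like cells and 0.80 to 1.41 times in myoblast-like cells, and Igfbp5 at 17.4 to 23.2 and 2.55 to 4.65 times, without overlap. Igfbp4 was not lower relative to the markers, at 2.90 to 3.74 times in progenitor-like and 3.34 to 4.18 times in myoblast-like cells.

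The other members moved less between these stages. Igfbp2 (log2 difference -0.91), Igfbp3 (-0.83), Igf2 (-0.62) and Igf2r (-0.45) were lower in myoblast-like cells with adjusted p-values of 5.84e-08 or less but by less than 2-fold. Igf1r did not differ detectably, with a log2 difference of 0.02 (SE 0.04, adjusted p = 0.765) and levels of 588, 596, 569 and 514 CPM in progenitor-like against 521, 531, 493 and 517 CPM in myoblast-like cells, which overlapped. Igfbp7 gave -0.10 (adjusted p = 0.347). All 3 calls held in each alternative, with Igfbp5 between -4.15 and -2.75 and Igf1 between -2.86 and -1.93 on the log2 scale. Over all 11545 genes tested 2172 were called lower and 1099 higher in myoblast-like cells. Of 26 other pathway genes 5 were lower and 1 higher. The lower ones were Lrp1 (log2 difference -3.72), Htra1 (-2.96), Igf2bp2 (-1.78), which encodes an RNA-binding protein of Igf2 mRNA, Irs2 (-1.56) and H19 (-1.32), and the higher one was Adam12 (3.31), at 3.71 to 6.59 CPM in progenitor-like and 40.5 to 49.7 CPM in myoblast-like cells.

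For the 3 members lower in myoblast-like cells, the 250 bases before the RefSeq start (GRCm38.p6) are printed 5′ to 3′ on the gene's strand, because myogenic factors such as MYOD1 and MYOG are known to bind E-boxes (CANNTG, the same on both strands). Capitals mark each E-box.
Igfbp5 (chr1:72874866-72875115, minus strand): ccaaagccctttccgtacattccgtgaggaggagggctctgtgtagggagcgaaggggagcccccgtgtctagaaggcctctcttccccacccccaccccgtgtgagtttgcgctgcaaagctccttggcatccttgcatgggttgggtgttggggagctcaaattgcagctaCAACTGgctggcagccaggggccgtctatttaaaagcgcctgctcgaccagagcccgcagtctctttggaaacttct
Igf1 (chr10:87860861-87861110, plus strand): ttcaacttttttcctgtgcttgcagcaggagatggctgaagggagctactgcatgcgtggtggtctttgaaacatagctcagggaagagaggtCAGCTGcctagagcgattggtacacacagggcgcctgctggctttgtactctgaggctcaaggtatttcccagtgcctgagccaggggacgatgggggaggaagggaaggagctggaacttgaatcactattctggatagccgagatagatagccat
Igfbp4 (chr11:99040994-99041243, plus strand): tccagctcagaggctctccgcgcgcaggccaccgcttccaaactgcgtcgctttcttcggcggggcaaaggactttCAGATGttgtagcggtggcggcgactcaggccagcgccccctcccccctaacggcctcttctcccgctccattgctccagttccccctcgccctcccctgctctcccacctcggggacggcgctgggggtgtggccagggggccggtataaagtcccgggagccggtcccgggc
Each window held 1 E-box, CAACTG 77 bases before the start of Igfbp5, CAGCTG 157 bases before that of Igf1 and CAGATG 174 bases before that of Igfbp4. The Igf1 window lies inside the annotated span of the gene (chr10:87858265-87937042), so an annotated start lies upstream of it. All 10 members had a window in the RefSeq table, 14 windows in all. An E-box is common, since 66.2% of the 32851 promoter windows held at least 1 CANNTG and 13.0% a CAGCTG, and nothing about binding can be read from these letters.

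Cycling and progenitor-like cells differed less. Of 12196 genes tested 9.07% were called and 2.79% were lower in cycling cells. Of the 9 members tested, 2 were lower in cycling cells: Igfbp4 (log2 difference -1.19, SE 0.07, adjusted p = 4.81e-17) and Igfbp5 (-1.04, SE 0.04, adjusted p = 1.76e-23). Both lay close to the 2-fold limit, and neither was called when doublets were removed. In that run the progenitor-like stage held 3758 cells with Ung as the leading gene, against 2782 cells in the main run. The part of this change in the lost calls was not tested. Igf1 (-0.54), Igfbp7 (-0.58) and Igfbp3 (-0.57) were lower by less than 2-fold, and Igf1r again showed no detectable difference (0.03, adjusted p = 0.415).

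Myotube-like cells, rich in contractile transcripts, had more of several members than myoblast-like cells, in a comparison that rests on 91 cells. Of 8360 genes tested 17.7% were called and 11.2% were higher in myotube-like cells, and of the 9 members 5 were higher. Igf2 rose by 1.64 on the log2 scale (SE 0.15, adjusted p = 4.55e-12), from 318, 366, 305 and 299 CPM to 750, 851, 734 and 964 CPM, without overlap. H19 rose beside it, by 3.30 on the log2 scale, from 189 to 241 CPM to 1522 to 1978 CPM, again without overlap. Igf1 rose by 2.20 (SE 0.39, adjusted p = 1.38e-05), from the levels given above to 38.0, 14.5, 58.0 and 85.5 CPM, which rest on 7, 2, 12 and 34 UMIs. WT2 overlapped with the myoblast-like libraries.

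Igfbp5 (log2 difference 1.48), Igfbp7 (1.15) and Igfbp4 (1.02) were called as well. Igfbp7 stood at 38.0, 138, 38.6 and 113 CPM in myotube-like and 39.2, 41.8, 39.1 and 48.7 CPM in myoblast-like cells. It was thus not higher in WT1 or KO1. Igfbp4 rested on 9, 2, 10 and 15 UMIs, and in WT2 it was lower, at 14.5 against 20.5 CPM. Igfbp5 rested on KO2, which held 49 of the 59 UMIs, whereas WT1 held 0 UMIs, which allows a level of up to 16.3 CPM. With DESeq2 3 members were called, Igfbp5 and Igfbp4 no longer among them, and without KO2 2 were called. Summed FAP markers were 1000, 262, 2053 and 1507 CPM in myotube-like cells, above the 252 to 325 CPM of myoblast-like cells in 3 of the 4 libraries, and their part in the Igf1 difference was not tested. Relative to them Igf1 stood at 0.60 to 1.30 times the FAP-like ratio. Igf1r went the other way, from 521, 531, 493 and 517 CPM to 283, 313, 222 and 274 CPM, without overlap, and its log2 difference of -0.65 (SE 0.16, adjusted p = 0.00179), which takes the unequal composition of the libraries into account, stayed under 2-fold. Among the other pathway genes H19 and Akt1 (1.40) were higher in myotube-like cells and Igf2bp3 (-1.56) was lower.

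Whether loss of SYISL altered the family was asked in each class and stage by comparing the 2 KO with the 2 WT libraries. No member passed an adjusted p of 0.05 by edgeR's quasi-likelihood test in any of the 9 classes or 4 stages, and 24 of the 122 tests of a member had an unadjusted p below 0.05, against 3.91% of the tests of all genes. These 122 tests share the same 4 libraries and are not independent. DESeq2 called none either. The background was as low: the share of genes called was 0% in 10 of these 13 comparisons, 0.143% in smooth muscle or pericyte-like cells, 0.017% in endothelial-like cells and 0.084% in mast-like cells. At 2 libraries a group these tests can miss changes, and the absence of a call does not show that levels were alike. The smallest adjusted p of any member was 0.0911, for Igf1 in endothelial-like cells.

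**Figure D4:**
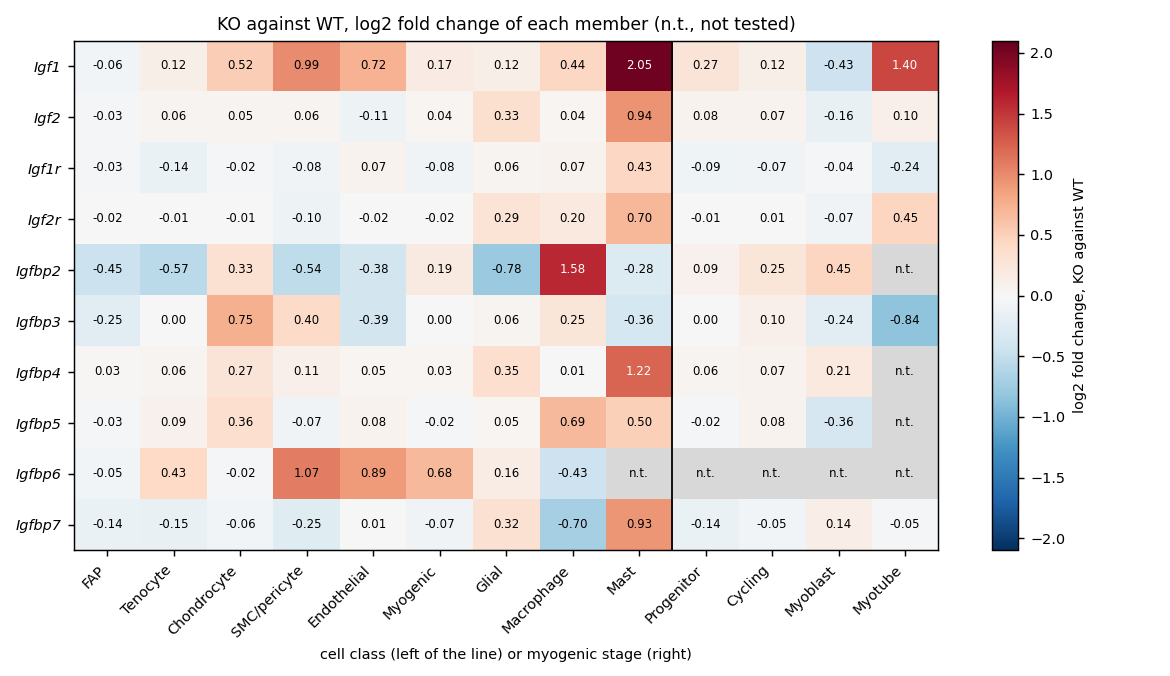
Log2 fold change of each member between KO and WT libraries (2 each) in the 9 classes and 4 myogenic stages, as fitted by edgeR, with red above 0 and blue below. In FAP-like cells all values lay between -0.45 and 0.03, while Igf1 ranged up to 2.05 in mast-like cells, and no value passed an adjusted p of 0.05.

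In the myogenic class the members lay close together in the genotypes. Log2 fold changes of KO over WT were between -0.08 and 0.04 for 7 members, and 0.17 (SE 0.16) for Igf1, 0.19 (SE 0.19) for Igfbp2 and 0.68 (SE 0.32) for Igfbp6, the last at 1 to 2 CPM. KO and WT libraries did not overlap for 3 of the 10 members, Igfbp6 above and Igf1r and Igfbp3 below, against 33.7% of all genes tested. Igf1r was 566 and 576 CPM in WT and 551 and 502 CPM in KO myogenic cells, a log2 fold change of -0.08 (SE 0.07, adjusted p = 0.967).

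In FAP-like cells the log2 fold change was -0.06 for Igf1 (SE 0.14), -0.03 for Igf2 (SE 0.09), -0.25 for Igfbp3 (SE 0.17) and -0.45 for Igfbp2 (SE 0.26), with adjusted p = 0.999 for each. Only Igfbp7 did not overlap, below in KO at 152 and 170 against 190 and 173 CPM in WT, 1 of 10 members against 30.6% of all genes. For Igf1 the FAP-like libraries of the genotypes interleaved, the first replicate of each being higher than the second. The difference in KO effect between myogenic and FAP-like cells was tested for all 10 members and 18103 genes, of which 0% were called. Igfbp2 came closest, with a difference of 0.65 on the log2 scale (SE 0.09, unadjusted p = 6.4e-05, adjusted p = 0.579), and it was called by DESeq2 (adjusted p = 0.0117) and when all genes with at least 10 UMIs were tested (adjusted p = 0.0195). Between myoblast-like and progenitor-like cells 0% of 12211 genes were called, and the KO effect on Igf1 differed by -0.71 (unadjusted p = 0.00782, adjusted p = 1.00).

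Igf1 was the member that most often passed an unadjusted p of 0.05, in 7 of the 13 comparisons and higher in KO in each. In smooth muscle or pericyte-like cells it was 51.6 and 27.4 CPM in WT and 93.2 and 64.0 CPM in KO, in endothelial-like cells 52.5 and 54.6 against 86.6 and 88.9 CPM, and in mast-like cells 30.4 and 9.61 against 90.8 and 74.7 CPM, with no overlap in any of them. The log2 fold changes were 0.99 (SE 0.22, adjusted p = 0.137), 0.72 (SE 0.11, adjusted p = 0.0911) and 2.05 (SE 0.42, adjusted p = 0.220). In macrophage-like cells it was 245 and 188 CPM in WT and 301 and 277 CPM in KO (0.44, SE 0.14, adjusted p = 0.997), and the chondrocyte-like, progenitor-like and myotube-like cells were the others. Leaving out any 1 library turned Igf1 into a call in smooth muscle or pericyte-like cells, with adjusted p from 2.0e-15 to 0.0102, a fit in which the lone library is assumed to vary like the other group. It was also called in endothelial-like cells without KO1 or without KO2 and in mast-like cells without WT1 or without WT2. In smooth muscle or pericyte-like cells Igf1 passed in 5 of all 12 alternative fits, those with a library left out among them.

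FAP transcripts moved with Igf1 in several of these classes. The sum of the 8 FAP markers was 2579 and 2180 CPM in WT and 4038 and 3321 CPM in KO smooth muscle or pericyte-like cells, with 8 of the 8 markers above WT in both KO libraries and Dcn at 52.2 to 251 CPM. In endothelial-like cells it was 1632 and 1043 against 2082 and 2181 CPM (7 of 8 markers), and in mast-like cells 827 and 582 against 2197 and 2189 CPM (8 of 8, with 1 marker at 0 in a library). Igf1 relative to these markers was 0.27 to 1.13 times the FAP-like ratio over these 3 classes. In macrophage-like cells the sum was 1762 and 1528 CPM in WT and 1955 and 1317 CPM in KO, with none of the 8 markers above WT in both KO libraries, and Igf1 was 2.67 to 4.81 times the FAP-like ratio. In myotube-like cells, where Igf1 was 38.0 and 14.5 CPM in WT and 58.0 and 85.5 CPM in KO, the sum was 1000 and 262 against 2053 and 1507 CPM, with 6 of the 8 markers above WT in both KO libraries. In chondrocyte-like and progenitor-like cells 1 and 2 of the 8 markers were. The part of FAP transcripts in the Igf1 differences was not tested.

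**Figure D5:**
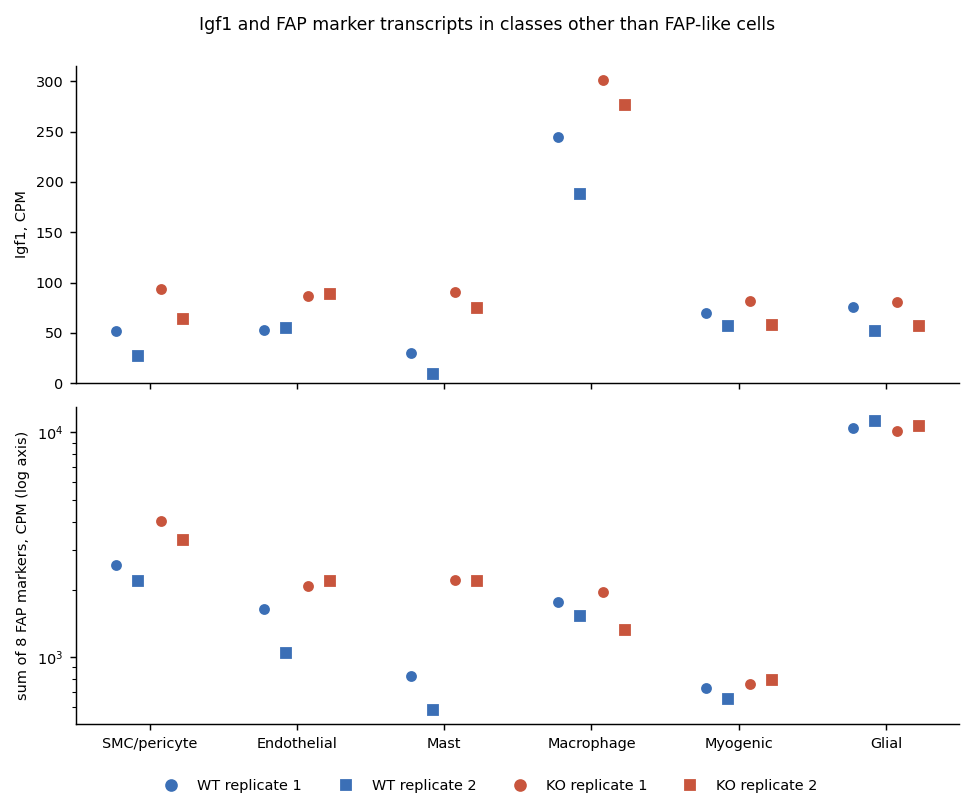
Igf1 (upper panel, CPM) and the sum of 8 FAP marker genes (lower panel, CPM, log axis) in 6 classes other than FAP-like cells, with 1 point per library (blue WT, red KO). In smooth muscle or pericyte-like, endothelial-like and mast-like cells both KO points lay above both WT points in each panel, while in macrophage-like cells they did so for Igf1 (277 and 301 against 188 and 245 CPM) and not for the markers.

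Other members of the smooth muscle or pericyte-like class also separated by genotype. KO and WT libraries did not overlap for 7 of its 10 members, 3 above and 4 below, against 34.2% of all genes, and 5 passed an unadjusted p of 0.05, against 5.47% of all genes. Igfbp2 was 57.3 and 78.8 CPM in WT and 49.0 and 43.3 CPM in KO (log2 fold change -0.54, SE 0.14, adjusted p = 0.308), and Igfbp7 was 1221 and 1154 against 1062 and 914 CPM (-0.25, SE 0.08, adjusted p = 0.593). Igfbp6 (1.07, at 4.93 to 14.9 CPM) and Igfbp3 (0.40, at 18.1 to 29.1 CPM) were the low ones among them. Both stood below the FAP-like ratio to the FAP markers in every library of this class, Igfbp6 at 0.25 to 0.51 and Igfbp3 at 0.65 to 0.95, and the part of the FAP transcripts, which were higher in KO, was not tested. Igfbp2 became a call without WT1 or without KO1, and Igfbp6 without KO2. In endothelial-like cells, where Igfbp3 is highest, it was 1068 and 1263 CPM in WT and 825 and 940 CPM in KO, without overlap (-0.39, SE 0.10, adjusted p = 0.612), and without KO2 it was called (-0.49). Igfbp2 was lower in KO at an unadjusted p under 0.05 in glial-like, tenocyte-like and smooth muscle or pericyte-like cells and higher in myoblast-like cells, with adjusted p-values of 0.308 to 1.00. With called doublets removed the value in glial-like cells turned from -0.78 to 0.29. None of the other pathway genes was called in any class or stage by edgeR. Of their 341 tests 17 had an unadjusted p below 0.05, against 3.91% of the tests of all genes.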

How the data were processed

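Per the labels and the study's methods, cells were captured with 10x 3′ v3 chemistry and the authors used Cell Ranger 7.2.0 with the mouse genome mm10; the deposited matrices hold raw UMI counts per gene and cell. Whether introns or strand entered the counting is not given in the sources used here, and 3′ counts have no gene length term, so levels were not compared between genes. By the study's limits, a cell needed 1000 to 6000 detected genes, a total of 1000 to 25000 UMIs and a mitochondrial share below 8%. Cells that passed were clustered (scanpy 1.11.5, Leiden, resolution 0.3, 3000 variable genes without the members and the pathway list), and classes, stages and FAP sub-clusters were named from markers. Doublets were called with Scrublet (1.65% to 2.56% of cells) and removed only in an alternative. UMIs were summed per library and class or stage and tested with edgeR 4.0.16 (TMM factors, filterByExpr, quasi-likelihood test) with p-values adjusted by Benjamini-Hochberg over the genes of each fit. Calls needed an adjusted p below 0.05, and at least 2-fold between classes or stages, where library was a block. The submitters call the libraries of a genotype biological replicates, and whether each came from 1 fetus or from several is not given in the sources used here, so p-values measure only the spread between these libraries, which may be technical. Limits at 0 UMIs cover counting error only. Alternatives were DESeq2 1.42.0, RLE factors, genes with at least 10 UMIs, other cell filters, doublets removed, members kept in clustering, other resolutions, other block terms and each library left out. The scripts were tested on simulated data. Positions come from GENCODE vM21 (GRCm38), whose identifiers matched all members, and promoters from RefSeq. Named were all 10 members, for each the first of the 3 genes with the most alike class profile, and of the pathway list the 4 largest calls per direction plus Pappa, Stc1, Stc2, Htra1, H19, Insr, Irs1 and the Igf2bp genes. The members, lists and rules were chosen with earlier results of these data known. A gene of the pathway list is not reported here.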

Additional observations from a re-analysis of the deposited data

Results flagged for a closer look

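For 5 members the KO libraries lay wholly above the WT libraries in some of the 9 classes and wholly below them in others, and for Igf1 this held among the 4 myogenic stages. Separation of KO and WT libraries was common over all genes tested. Its share was 33.7% in myogenic, 30.6% in FAP-like and 34.2% in smooth muscle or pericyte-like cells. How many of all genes separate in both directions was not counted. The opposed directions were not tested, and classes were not set against stages. The values are differences between the most opposed log2 fold changes of KO over WT among the classes, or for Igf1 among the stages. For Igf1 the difference was 1.83 between myotube-like (1.40) and myoblast-like cells (-0.43), the former on 55 UMIs and turned to -0.59 by the looser cell filter. For Igfbp6 it was 1.51 between smooth muscle or pericyte-like (1.07) and macrophage-like cells (-0.43), both with under 15 CPM. For Igfbp3 it was 1.14 between chondrocyte-like (0.75) and endothelial-like cells (-0.39), where KO1 alone, with the fewest chondrocyte-like cells (173), stood at 231 CPM against 88.2 to 122 CPM in the other libraries of that class. For Igf2r it was 0.805 between mast-like (0.70) and smooth muscle or pericyte-like cells (-0.10). For Igfbp7 it was 0.576 between glial-like (0.32) and smooth muscle or pericyte-like cells (-0.25), and for Igf1r 0.574 between mast-like (0.43) and tenocyte-like cells (-0.14).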

How the results depend on the processing

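Over 86 fold changes, 940 alternative values kept direction and side of the threshold, 24 passed it only in the alternative, 16 lost it and 36 changed sign, none of a value called in the report. The causes were not tested.

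Members called, KO against WT, ran from 0 to 4. Leaving out each library in turn gave 1 to 2 in smooth muscle or pericyte-like cells, 0 to 2 in endothelial-like, 0 to 3 in mast-like, and 0 to 1 in chondrocyte-like, macrophage-like, myoblast-like and myotube-like cells. With the replicate number as a block (replicate block) 4 members were called in smooth muscle or pericyte-like cells (Igf1, Igfbp2, Igfbp6 and Igfbp7) and 0 elsewhere. Same-numbered libraries deviated together with correlations of 0.04 to 0.31 over 8 classes, but 2 pairs do not establish a pairing. Genes called, KO against WT, went from 18 to between 91 and 163 in smooth muscle or pericyte-like cells and from 0 to between 4 and 8 in myogenic cells when a library was left out, and to 155 and 30 with the block.

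Between stages, myotube-like against myoblast-like cells gave 3 members with DESeq2 and 2 to 5 with a library left out (2 without KO2), and cycling against progenitor-like cells 1 with members kept or looser filters and 0 without doublets. The progenitor-like stage held 3618 cells with members kept, 3676 with looser filters and 3758 without doublets, against 2782 in the main run. The KO effect in myogenic against FAP-like cells gave 1 with DESeq2 or genes of at least 10 UMIs and 2 with members kept.

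With a library left out, log2 fold changes of KO over WT crossed 0 in myogenic cells for Igfbp2 (-0.074 to 0.48), Igf1 (-0.083 to 0.39), Igfbp5 (-0.10 to 0.070), Igfbp7 (-0.18 to 0.033), Igfbp3 (-0.0057 to 0.013), Igfbp4 (-0.039 to 0.11) and Igf2r (-0.074 to 0.043). They did so in FAP-like cells for Igf1 (-0.22 to 0.12), Igfbp6 (-0.24 to 0.15), Igfbp5 (-0.15 to 0.10), Igf1r (-0.12 to 0.060), Igf2 (-0.12 to 0.063) and Igf2r (-0.10 to 0.063). Stage differences crossed 0 for Igf1r in myoblast-like (-0.028 to 0.044) and Igfbp2 in myotube-like cells (-0.32 to 0.031).

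With members kept, where the chondrocyte-like and tenocyte-like names took in clusters with FAP markers, log2 values turned to 0.022 (Igfbp5, KO, myogenic), -0.070 (Igfbp3, KO, chondrocyte-like), -0.15 (Igfbp2, FAP-like against myogenic), 0.061 (Igfbp7) and -0.012 (Igf1r, both myoblast-like against progenitor-like). Without doublets they turned to 0.29 (Igfbp2) and -0.024 (Igf2) in KO glial-like cells and 0.087 (Igfbp7, myoblast-like). With the looser filter they turned to -0.59 (Igf1, KO, myotube-like), 0.34 (Igfbp7, myoblast-like) and 0.062 (Igfbp3, myotube-like). Igf1r in myoblast-like cells was -0.048 at stage resolution 0.8, and Igfbp2 in myotube-like cells 0.12 without library as a block. Depth limits myotube-like and mast-like cells most, with 91 and 290 cells.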
